A study of Zea mays with 9 samples.

Results

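The plasma membrane intrinsic proteins (PIPs) are the aquaporins of the plant plasma membrane. They form tetramers in which each subunit holds its own water pore, and they set much of the water permeability of root cells, including the expanding cells of a root tip. The family has a PIP1 and a PIP2 subfamily. When maize PIPs are made in frog oocytes, PIP2 proteins such as PIP2-1 and PIP2-5 give high water permeability on their own, whereas PIP1 proteins give little unless a PIP2 protein is present, with which they assemble and reach the plasma membrane.

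The transcripts of 10 PIP genes, 4 of the PIP1 and 6 of the PIP2 subfamily, were followed here across 3 water treatments, out of 39323 genes in the read tables. The 10 were chosen by gene identifier as PIP1 and PIP2 aquaporins, not by their measured values, but with earlier results of these data known. The files name 9 of them as PIP genes, and GRMZM2G174807 is PIP1-1 by a synonym in the RefSeq annotation. RefSeq gives PIP1-4 as a further synonym of PIP1-3. A further gene with a PIP name, PIP1-2, was not among the 10 and is given with the other aquaporins.

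The RNA-seq data came from the apical 1 cm of primary roots, root cap included, of dark-grown seedlings of maize inbred line B73. The paper refers to this segment as the primary root growth zone. There were 3 biological replicates, each a pool of 5 roots, for each of 3 vermiculite water potentials, namely well-watered (-0.02 MPa, replicates 1, 2 and 3), mild stress (-0.3 MPa, replicates 1, 3 and 4) and severe stress (-1.6 MPa, replicates 1, 2 and 5). Roots were harvested 26 h after transplanting. The question was which PIP transcripts differed in abundance between these water potentials. The mild water potential follows the sample labels, since the title of the deposited data gives another value.

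Each library held 33401124 to 52072025 reads, and 3 reads, taken as the smallest detectable abundance, were 0.0576 to 0.0898 CPM (reads of a gene per 1000000 reads of its library), a limit that covers counting error only. Replicates had a Pearson's r of log2 abundance of 0.993 to 0.995 across genes in well-watered and mildly stressed roots, and of 0.981 to 0.993 under severe stress, where replicate 2 stood farthest from the other two. Of 12 leaf genes, 8 stayed at or below 0.242 CPM in every library, namely the Rubisco small subunit and chlorophyll a-b binding genes ssu1, rbcs, cab1, cab48, lhcb3, lhcb4 and lhcb5 and 1 of the 2 copies of pep1. The other copy of pep1 reached 2.06 CPM. The chlorophyll a-b binding genes lhcb6, at 3.89 to 6.45 CPM, and lhcb7, at 0.456 to 1.64 CPM, rose under severe stress (log2 fold change 0.45 and 1.10, edgeR, FDR 0.0119 and 0.00535). The highest was ppdk1, an enzyme of pyruvate metabolism that is not confined to leaves, which ranged from 114 to 137 CPM without stress and from 48.4 to 66.2 CPM with it. The genes pcna1 and pcna2, which mark dividing cells, summed to 183 to 194 CPM in well-watered, 178 to 187 CPM in mildly stressed and 115 to 136 CPM in severely stressed roots. Of 5 genes of maturing root tissue, the secondary wall cellulose synthase genes cesa10, cesa12 and 1 of the 2 copies of cesa11 rose under severe stress and the root hair gene rth3 fell (edgeR, FDR below 0.05). The sum of the 5 was 257 to 271, 262 to 286 and 321 to 408 CPM in the same order of treatments. Severe stress replicate 2 had the lowest sum of dividing-cell genes (115 CPM) and the highest sum of maturing-root genes (408 CPM) of all libraries. A segment of fixed length was sampled in every treatment. According to the paper, the root growth zone becomes progressively shorter as water deficit increases. It adds that the segment held most or all of that zone, depending on treatment. The segments of the treatments may therefore differ in how much tissue beyond the growth zone they hold. The part of such a difference, and of the marker genes, in the PIP results was not tested.

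Abundance is given as normalised CPM, the CPM of a gene after scaling with TMM factors (trimmed mean of M-values), and changes were tested across 26994 genes with edgeR's quasi-likelihood F-test. A gene with a false discovery rate (FDR) below 0.05 is referred to as changed. All 10 PIP genes were among the genes tested. Changes are relative to the RNA of the segment, and fewer cells of a type cannot be told apart from less RNA per cell.

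Reads of all PIP genes but 1 were plentiful. In well-watered roots the 10 genes together had 5676 ± 364 normalised CPM (SD, n = 3), in mildly stressed roots 5434 ± 469 CPM and in severely stressed roots 5948 ± 86.2 CPM. The ranges of the 3 treatments overlapped, but with library sizes alone the severely stressed libraries, at 6080 to 6401 CPM, lay above the well-watered ones at 5186 to 5844 CPM. Single members moved in both directions. Under mild stress 2 PIP2 genes, PIP2-1 and PIP2-6, fell. Under severe stress PIP1-3, PIP1-5, PIP1-6, PIP2-2 and PIP2-5 rose, PIP2-1 fell, and PIP2-6 was not changed against well-watered roots.

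In counts, 2 of the 10 genes were changed under mild stress, both lower, where 8.55% of all genes were changed, 4.45% higher and 4.11% lower. No PIP gene rose under mild stress in edgeR, although PIP2-3 was higher at an unadjusted p below 0.05 and was the 1 PIP gene that DESeq2 called higher. Under severe stress 6 of the 10 were changed, 5 higher and 1 lower, against a background of 54.7% of all genes changed, 28% higher and 26.7% lower, so that the share of PIP genes changed was close to that of all genes. Between severe and mild stress 7 of the 10 were changed, 5 higher in severe stress and 2 lower, against a background of 49.3%, with 25.9% higher and 23.4% lower. The median log2 fold change of the 10 genes was 0.01, 0.17 and 0.34 in these comparisons, and that of all genes tested was 0.003, 0.007 and 0.02. The normalised CPM of the treatments compared did not overlap for 3, 5 and 7 of the 10 genes, where 31.7%, 62.7% and 57.2% of all genes did not overlap. The comparisons share libraries, so they are not independent of each other.

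The scaling bears on these counts. TMM factors were 0.961 to 0.989 in well-watered and mildly stressed roots and 1.03 to 1.09 under severe stress. With library sizes alone the median log2 fold change of all genes shifted by 0.127 for severe stress against well-watered and by 0.104 for severe against mild stress. The share of higher calls among all changed genes went from 51.1% to 65.6% and from 52.5% to 65.7%, respectively. On that scale 9 PIP genes were changed under severe stress. PIP1-1, PIP2-4 and PIP2-6 were added, with log2 fold changes of 0.21, 0.24 and 0.18 beside the shift of 0.127. Between severe and mild stress PIP1-1 (0.22) and PIP2-2 (0.26) were then called, and PIP2-1 (-0.18) and PIP2-3 (-0.24) were not.

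**Figure D1:**
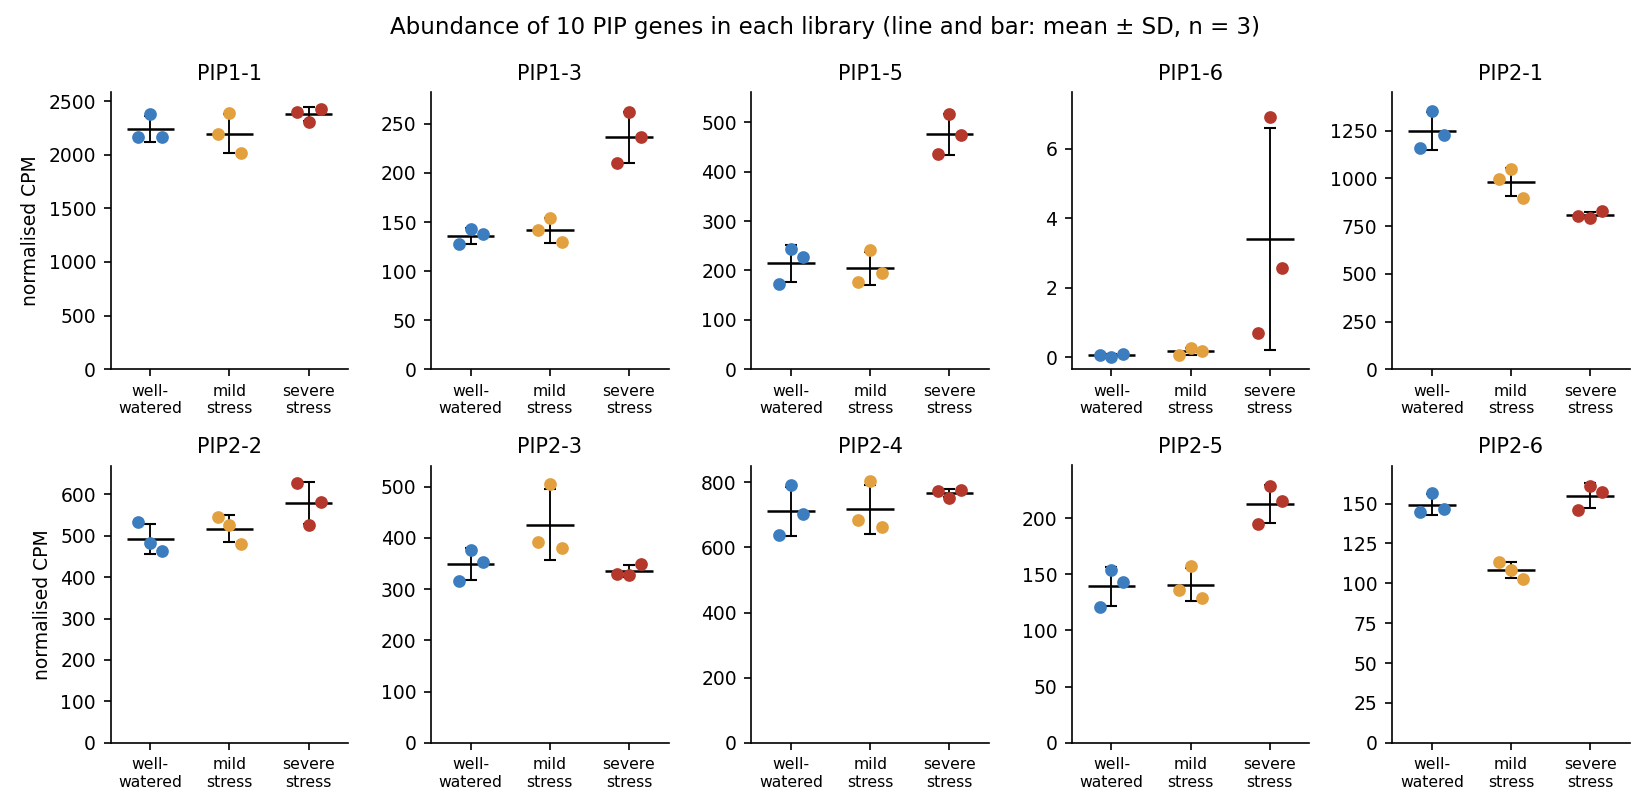
Normalised CPM (vertical axes, 1 scale for each gene) of the 10 PIP genes in well-watered, mildly stressed and severely stressed roots, with a point for each library, a line for the mean and a bar for the SD (n = 3). PIP1-3, PIP1-5 and PIP2-5 are higher in every severely stressed library than in any other, PIP2-1 steps down from 1247 to 981 and 807 CPM, and PIP2-6 is low in mild stress only.

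**Figure D2:**
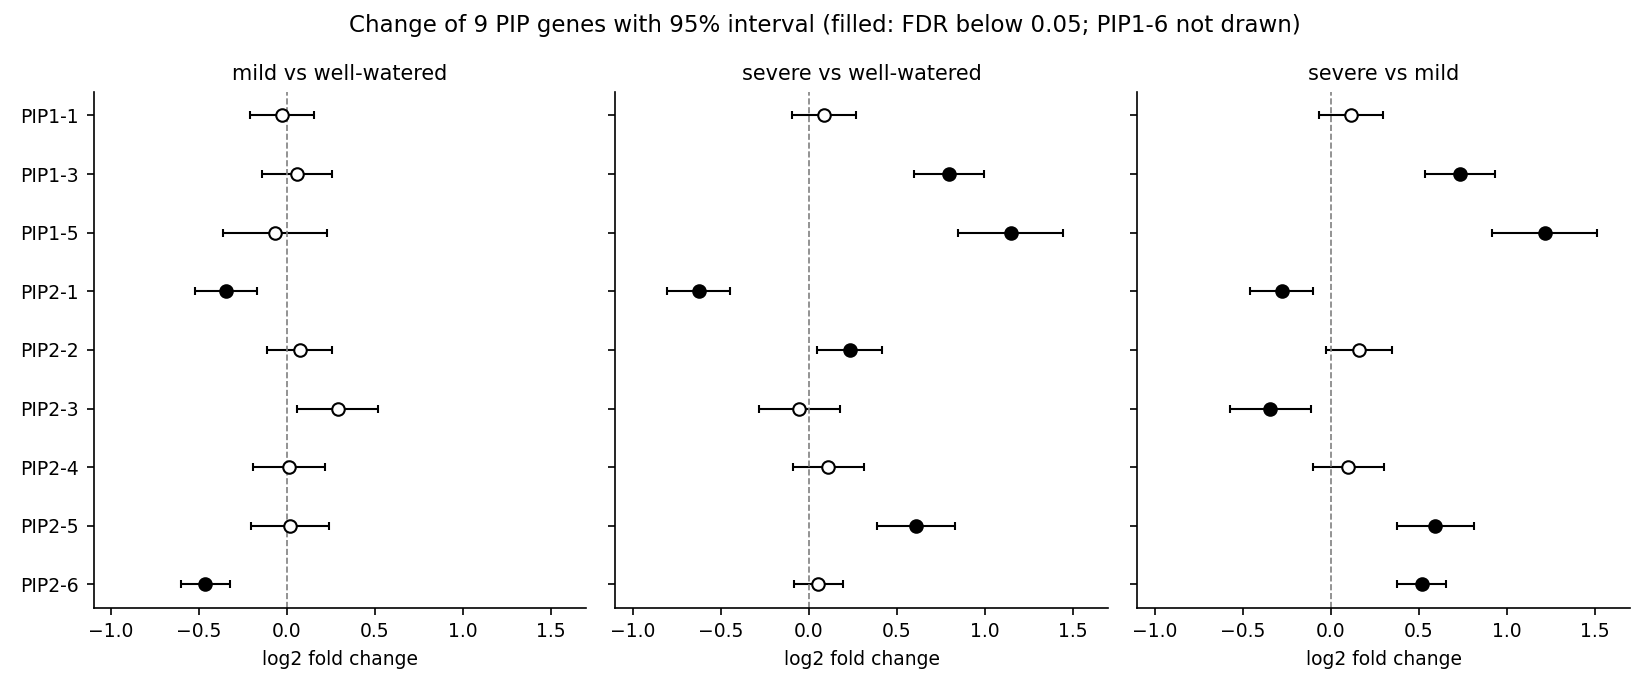
Log2 fold change (horizontal axes) of 9 PIP genes in the 3 comparisons, with the 95% interval of edgeR's fit, not adjusted for the number of genes. Filled points have an FDR below 0.05; PIP2-1 and PIP2-6 are filled and negative under mild stress, and PIP1-3, PIP1-5, PIP2-2 and PIP2-5 are filled and positive under severe stress, whereas PIP1-6 (5.96 under severe stress) lies outside the scale and is not drawn.

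PIP1-1 was the most abundant member in every treatment. The gene (GRMZM2G174807) lies on chromosome 2 from 18757671 to 18759694 of B73 RefGen_v3, on the minus strand, and its most read transcript has 4 exons. It had 2169, 2383 and 2165 CPM in the well-watered replicates, 2191, 2385 and 2017 CPM in the mild and 2400, 2307 and 2426 CPM in the severe stress replicates. These ranges overlapped, and neither stress changed it, with a log2 fold change of -0.03 (95% interval -0.21 to 0.16) under mild and 0.09 (-0.10 to 0.27) under severe stress (edgeR, FDR 0.907 and 0.406). The upper bound under severe stress corresponds to a 1.21-fold rise.

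PIP1-5 showed the largest rise among the well-expressed members. The gene (GRMZM2G081843) lies on chromosome 4 from 170004633 to 170006133, on the minus strand, with 2 exons and 1 annotated transcript. Well-watered replicates had 173, 244 and 227 CPM, mild stress replicates 177, 242 and 195 CPM, and severe stress replicates 435, 517 and 474 CPM. All severely stressed libraries stood above all others, and the other 2 treatments overlapped. The log2 fold change was 1.15 (SE 0.137, FDR 2.93e-05, edgeR) against well-watered roots, a 2.22-fold rise, and 1.22 (SE 0.137, FDR 3.4e-05) against mild stress. Under mild stress alone it was -0.07 (95% interval -0.36 to 0.23, FDR 0.838).

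PIP1-3 (GRMZM2G392975), on the same chromosome from 153654423 to 153658268 on the plus strand, followed the same course at a lower level. It had 127, 143 and 138 CPM in the well-watered libraries, 141, 155 and 129 CPM under mild stress and 210, 262 and 237 CPM under severe stress. The severe stress libraries again lay above all others. The rise was 1.74-fold, a log2 fold change of 0.80 (SE 0.0909, FDR 2.16e-05, edgeR), and 0.74 against mild stress (FDR 6.09e-05). It was smaller when only reads unique to 1 transcript were counted, namely 0.39 on the log2 scale (FDR 0.000351). The share of unique reads of PIP1-3 was 44.7% to 48.2% in well-watered, 36.9% to 41.3% in mildly stressed and 32.9% to 36.6% in severely stressed roots, so that total and unique reads of this gene did not change alike.

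PIP1-6 (GRMZM2G136032), on chromosome 9 from 6467685 to 6469385 on the plus strand, was barely read outside severe stress. The well-watered libraries held 2, 0 and 4 reads and the mildly stressed ones 2, 9 and 7 reads, at or near the smallest detectable abundance. The severely stressed libraries held 38, 387 and 95 reads, or 0.71, 6.93 and 2.56 CPM. Every severely stressed library was above every other, but they differed widely among themselves and most of the reads were in replicate 2. Adding the libraries of a treatment, 520 reads under severe stress against 6 in well-watered roots gave a ratio of 68.6 per normalised library size (95% Clopper-Pearson interval 31.3 to 188, counting error only). PIP1-6 was called in edgeR (FDR 0.000311 against well-watered and 0.00103 against mild stress), with fitted log2 fold changes of 5.96 and 4.38 that depend on the prior count at such low reads. Without severe stress replicate 2 the fitted change against well-watered roots was 4.86 (FDR 9.55e-05). Under the alternative filter of at least 1 CPM in at least 3 libraries PIP1-6 was not tested, since only severe stress replicates 2 and 5 reached 1 CPM. For mild stress the ratio of 18 to 6 reads was 3.08 (1.17 to 9.49) and the gene was not called (FDR 0.61).

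PIP2-1, the most abundant PIP2 gene in well-watered roots and a water channel of high activity in oocytes, was the member that fell under both stresses. The gene (GRMZM2G014914) lies on chromosome 7 from 41435006 to 41438812, on the minus strand. Well-watered replicates had 1161, 1355 and 1226 CPM, mild stress replicates 998, 1047 and 899 CPM, and severe stress replicates 804, 792 and 827 CPM. The 3 treatments did not overlap, and severe stress lay lowest. Under severe stress PIP2-1 was 1.54-fold lower (log2 fold change -0.63, SE 0.0819, FDR 5.94e-05, edgeR). This call held without any single library, with log2 fold changes of -0.68 to -0.56. Under mild stress it was 1.27-fold lower (-0.35, SE 0.0817, FDR 0.0209), and that call was lost without well-watered replicate 2 (FDR 0.113) or 3 (0.0639) and without mild stress replicate 1 (0.0598) or 4 (0.111). Between the stresses it fell by 0.28 on the log2 scale (FDR 0.0136), but not without mild stress replicate 3 (-0.24, FDR 0.0616).

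PIP2-6 (GRMZM2G047368) lies on the same strand as PIP2-1, 115 kb away, at 41553959 to 41555454 on chromosome 7, with 2 annotated genes between them. Its course differed from that of its neighbour. It had 144, 157 and 146 CPM in the well-watered libraries, 113, 109 and 103 CPM under mild stress, and 146, 161 and 157 CPM under severe stress. Mild stress stood apart below both other treatments, which overlapped. PIP2-6 was 1.38-fold lower under mild stress (log2 fold change -0.46, SE 0.0636, FDR 0.000702, edgeR) and 1.43-fold higher in severe than in mild stress (0.52, SE 0.0635, FDR 5.94e-05). Both calls held when any 1 library was left out. Against well-watered roots its change under severe stress was 0.05 (95% interval -0.08 to 0.19, FDR 0.501).

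PIP2-5 (GRMZM2G178693), on chromosome 2 from 28493204 to 28495467 on the minus strand, is known from maize roots as an active water channel. It had 120, 154 and 143 CPM in well-watered, 136, 157 and 129 CPM in mildly stressed and 194, 228 and 215 CPM in severely stressed roots. Severe stress lay above both other treatments. The rise was 1.53-fold against well-watered (log2 fold change 0.61, SE 0.101, FDR 0.000333, edgeR) and 1.51-fold against mild stress (FDR 0.000532). No change was detected under mild stress (0.02, 95% interval -0.21 to 0.24, FDR 0.96).

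PIP2-2 (GRMZM2G092125), on chromosome 2 from 169186912 to 169190423 on the plus strand, moved by less. There were 533, 481 and 463 CPM in the well-watered replicates, 545, 527 and 481 CPM in the mild and 627, 525 and 582 CPM in the severe stress replicates. Severe stress replicate 2 lay below well-watered replicate 1, so that the treatments overlapped. The 1.17-fold rise under severe stress was called (log2 fold change 0.23, SE 0.0852, FDR 0.0362, edgeR), but only 4 of the 9 fits that left out a library kept it. The call was lost without well-watered replicate 2 (FDR 0.107) or 3 (0.141), mild stress replicate 3 (0.0643) and severe stress replicate 1 (0.104) or 5 (0.0846), and with unique reads (0.0626). It was 0.16 higher in severe than in mild stress (FDR 0.14), a difference that was called only without severe stress replicate 2 (0.22, FDR 0.0197).

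PIP2-3 (GRMZM2G081192), on chromosome 4 from 143891075 to 143894123 on the plus strand, was the member highest under mild stress. It had 315, 377 and 353 CPM in the well-watered libraries, 391, 506 and 381 CPM under mild stress and 329, 328 and 349 CPM under severe stress. The mildly stressed libraries lay above all others, with replicate 3 the highest. The difference from well-watered roots missed the threshold in edgeR (log2 fold change 0.29, SE 0.106, FDR 0.128) and passed it in DESeq2 (adjusted p 0.0406). From mild to severe stress PIP2-3 fell by 0.34 on the log2 scale (SE 0.105, FDR 0.0176), a call that was lost without mild stress replicate 3 (-0.21, FDR 0.0733). Severe stress and well-watered roots did not differ detectably (-0.05, 95% interval -0.29 to 0.18), and with library sizes alone the sign turned (0.07).

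PIP2-4 (GRMZM2G154628), on chromosome 5 from 195239679 to 195242694 on the plus strand, was not changed in any comparison. Its values were 639, 790 and 704 CPM in well-watered, 683, 803 and 664 CPM in mildly stressed and 773, 753 and 776 CPM in severely stressed roots. The well-watered and mildly stressed replicates spread over the whole range of the severely stressed ones. The log2 fold changes were 0.01 (95% interval -0.19 to 0.21) and 0.11 (-0.09 to 0.31) against well-watered roots (edgeR, FDR 0.97 and 0.337).

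To compare levels between genes, normalised CPM were divided by the length of the longest annotated transcript in kilobases (RPKM). PIP1-1 was first in every treatment, with 1613 ± 89.8, 1583 ± 133 and 1713 ± 45.2 RPKM (SD, n = 3) from well-watered to severe stress, and ranked 10, 10 and 8 among all 26994 genes tested. The others followed well below it. In well-watered roots the order was PIP2-1 (637 ± 50.4 RPKM), PIP2-4 (474 ± 50.5), PIP2-2 (335 ± 24.7), PIP2-3 (210 ± 18.8), PIP1-5 (152 ± 26.4), PIP2-6 (115 ± 5.09), PIP2-5 (112 ± 13.7) and PIP1-3 (81.2 ± 4.85). Neighbours in this order did not overlap in their replicates, except PIP2-6 and PIP2-5. Under mild stress PIP2-1 (501 ± 38.6 RPKM) overlapped with PIP2-4 (477 ± 50.1), as did PIP1-5 with PIP2-5 and PIP1-3 with PIP2-6. Under severe stress PIP2-4 (511 ± 8.35 RPKM) was above PIP2-1 (413 ± 9.04) with no overlap. This order rests on the annotated lengths, 1501 bp for PIP2-4 and 1957 bp for PIP2-1. In normalised CPM PIP2-1 stayed above PIP2-4 under severe stress, at 792 to 827 against 753 to 776 CPM. PIP1-5, now at 338 ± 29.2 RPKM, had moved above PIP2-3 (202 ± 7.12) and overlapped with PIP2-2 (393 ± 34.6). PIP1-6 was last throughout, at 0.034, 0.107 and 2.19 RPKM. Apart from PIP1-6, every member ranked in the top 5.41% of the genes tested in every treatment. PIP1-2, not among the 10 and annotated with only 870 bp, had 764 to 913 RPKM in well-watered roots. Per length it lay above PIP2-1 in every treatment, but in normalised CPM below it.

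**Figure D3:**
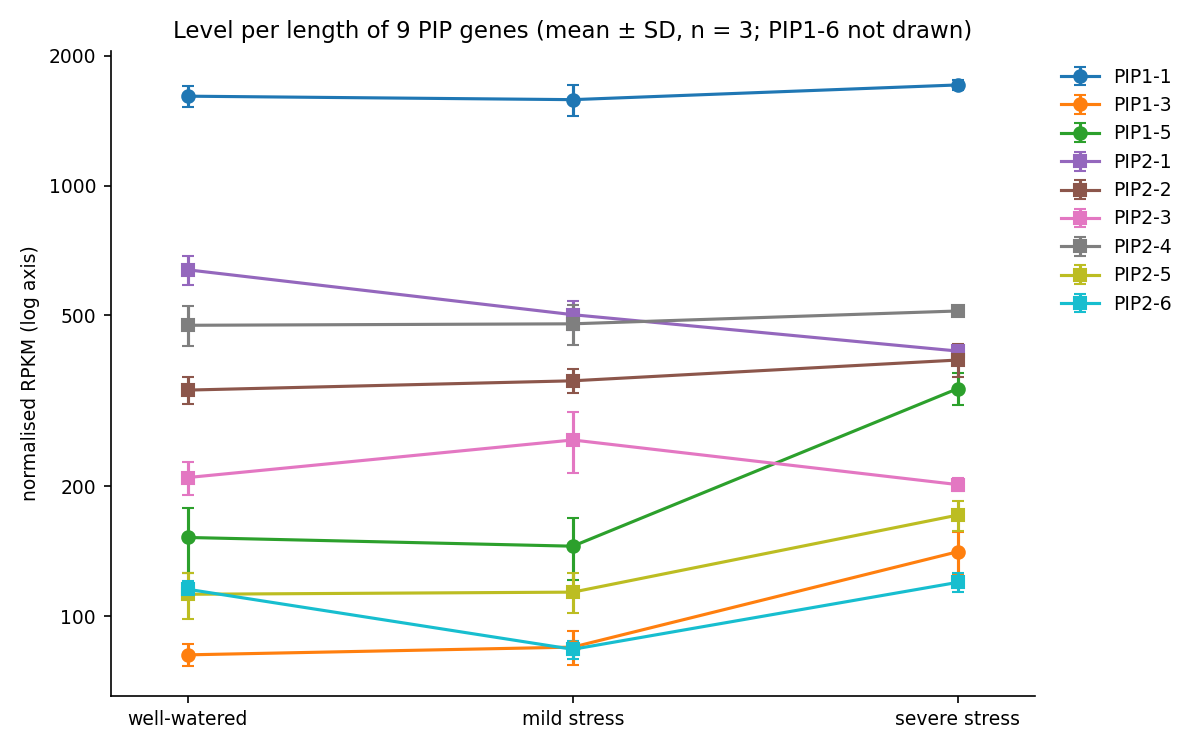
Level per length of 9 PIP genes in normalised RPKM (vertical log axis) in the 3 treatments, with circles for PIP1 and squares for PIP2 genes and bars for the SD (n = 3). PIP1-1 stays on top between 1583 and 1713 RPKM, PIP2-1 passes below PIP2-4 between mild and severe stress (per length, not in CPM), and PIP1-5 passes above PIP2-3.

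The composition of PIP reads does not depend on the scaling of the libraries, so it was also taken as the share of each gene in the reads of all 10. PIP1-1 made up 38.9% to 41% of PIP reads in all 9 libraries. PIP2-1 made up 21.6% to 22.3% in well-watered, 17.7% to 18.6% in mildly stressed and 13.5% to 13.7% in severely stressed roots, with a narrow spread in each treatment. Opposite to it, PIP1-5 took 3.21% to 4.08%, 3.29% to 4.08% and 7.35% to 8.80%, and PIP1-3 took 2.35% to 2.47%, 2.59% to 2.63% and 3.54% to 4.46%. PIP2-3 had its highest share under mild stress (7.28% to 8.53%, against 5.86% to 6.34% in well-watered and 5.56% to 5.77% in severely stressed roots).

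The balance of the subfamilies moved with these genes. The 4 PIP1 genes held 45.5% to 45.9% of PIP reads in well-watered, 46.7% to 46.9% in mildly stressed and 51.5% to 52.6% in severely stressed roots. The 3 treatments did not overlap in this share, which passed that of the PIP2 genes under severe stress only as long as PIP1-2 was left out. With PIP1-2 counted among the PIP1 genes, their share was above that of the PIP2 genes in every treatment, at 51.7% to 51.8%, 52.0% to 52.4% and 56.9% to 57.8%, again with no overlap. In normalised CPM the PIP1 genes summed to 2589 ± 159, 2544 ± 223 and 3093 ± 46.6, and the PIP2 genes to 3087 ± 205, 2890 ± 247 and 2856 ± 61.3 (SD, n = 3). The order of the PIP2 sums in severe stress and well-watered roots turned with library sizes alone, where they were 3009 and 2982 CPM, whereas the PIP1 sums kept their order (3260 and 2501 CPM).

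**Figure D4:**
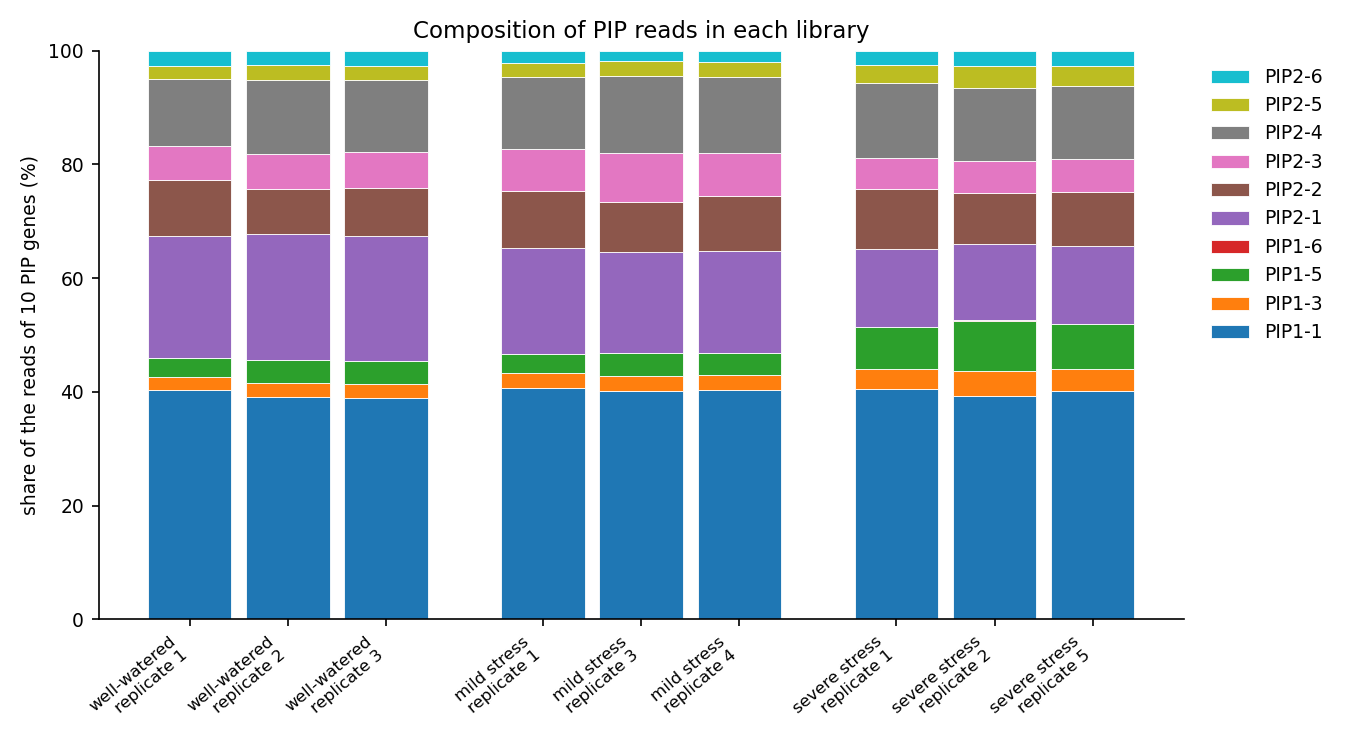
Share of each PIP gene in the reads of all 10 genes (vertical axis, %) in each of the 9 libraries (bars). The PIP2-1 band narrows from about 22% in well-watered roots to under 14% in severely stressed ones, and the PIP1-5 and PIP1-3 bands widen under severe stress, while the PIP1-1 band stays near 40%.

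The annotated transcripts of the genes were then looked at one by one. Shared sequence between transcripts of a gene limits this view, since only 4.33% to 5.47% of PIP1-1 reads, 6.26% to 7.22% of PIP2-1 reads, 6.87% to 8.20% of PIP2-6 reads and 44.5% to 47.6% of PIP2-2 reads were unique to 1 transcript. For PIP1-5, PIP1-6, PIP2-3, PIP2-4 and PIP2-5, which have 1 transcript each, all reads were counted as unique. The same held for all 26707 genes with 1 annotated transcript, so the unique column separates transcripts of the same gene and does not tell close copies in different genes apart. How reads that match several PIP genes were assigned is not given in the sources used here, and neither is the strandedness of the libraries.

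In most multi-transcript genes 1 form held nearly all reads. T01 of PIP1-1 held 97% to 97.6% of the gene's reads in every library, T01 of PIP1-3 at least 99.8%, T01 of PIP2-2 at least 98.7% and T01 of PIP2-1 91.2% to 93%. PIP2-6 was divided between T02, which has 4 exons, and T01, in which 1 of the 3 introns of T02 lies inside an exon. T02 held 60.3% to 63.2% of the reads in well-watered, 54.8% to 61.6% in mildly stressed and 62% to 68.2% in severely stressed roots. Both forms fell under mild stress, by 0.52 (T02) and 0.38 (T01) on the log2 scale (edgeR over 46599 transcripts, FDR 0.0269 and 0.0252), and both were higher in severe than in mild stress (0.68 and 0.32, FDR 0.0014 and 0.0111). The mild stress calls of both forms were lost without well-watered replicate 1, 2 or 3 or mild stress replicate 3 (FDR 0.0551 to 0.110), that of T02 also without mild stress replicate 4 (0.0873), and that of T01 also without mild stress replicate 1 (0.0865) and with unique reads (0.0904). Between the stresses the call of T02 held without any single library, and that of T01 was lost without mild stress replicate 3 (0.0525) and with unique reads (0.203). In PIP1-1 the minor form T02, whose single exon spans 2 of the 3 introns of T01, held 2.32% to 2.99% of the reads. In all, 3 of 17 PIP transcripts tested were changed under mild stress, all lower, against 2.43% of all transcripts (1.38% higher, 1.06% lower). Severe stress changed 7 of them, 5 higher and 2 lower, against 29.5% (16.4% and 13.1%). Between the stresses 7 differed, 6 higher and 1 lower, against 24.2% (13.8% and 10.4%). PIP2-1 T01, with a log2 fold change of -0.34 and an FDR of 0.0643 under mild stress, missed the threshold that T03 of the same gene passed (-0.43, FDR 0.0166). The call of T03 was lost without well-watered replicate 1 (0.0650) or 2 (0.0734) or mild stress replicate 3 (0.0563) or 4 (0.0727), and with unique reads (0.0591).

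Genes of the most similar pattern over the 9 libraries were sought among 13089 genes with at least 10 CPM, as a description that shares libraries and depth with the PIP values. For PIP1-1 these were GRMZM2G180596, GRMZM2G171430 and GRMZM2G064936, with a Pearson's r of log2 CPM of 0.97, 0.90 and 0.89. For PIP2-1 they were GRMZM2G435393, GRMZM2G115612 and GRMZM2G366373, with r of 0.99, 0.99 and 0.98. These last 3 genes stepped down like PIP2-1, from 36.9 to 25.0 and 17.4 CPM, from 33.4 to 23.2 and 17.5 CPM and from 122 to 107 and 96.3 CPM (treatment means from well-watered to severe stress). RefSeq gives no descriptive symbol for them.

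The other aquaporins of maize sit mostly in inner membranes or carry other solutes. Tonoplast intrinsic proteins (TIPs) are the channels of the vacuole membrane, NOD26-like intrinsic proteins (NIPs) include channels for silicon and boron, and small basic intrinsic proteins (SIPs) lie in the endoplasmic reticulum. By name, 19 such genes were found, 10 TIP, 5 NIP and 3 SIP genes and PIP1-2, of which 17 were tested. Under mild stress 2 of them were changed (1 higher, 1 lower), under severe stress 14 (10 higher, 4 lower), and between the stresses 14 (12 higher, 2 lower), against the backgrounds of 8.55%, 54.7% and 49.3% of all genes given above. Their median log2 fold change was -0.21, 0.48 and 0.41.

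Of these 17 genes NIP2-1, the maize counterpart of the rice silicon channel Lsi1, had the largest fold change under both stresses. It had 1.39, 1.37 and 1.65 CPM in well-watered, 6.28, 7.39 and 6.56 CPM in mildly stressed and 68.4, 88.3 and 70.7 CPM in severely stressed roots, a log2 fold change of 2.19 under mild (SE 0.145, FDR 4.59e-06, edgeR) and 5.68 under severe stress (SE 0.133, FDR 2.76e-10). No library of 1 treatment overlapped with another treatment. NIP2-2, a further silicon channel, fell 2.29-fold under severe stress (-1.19, FDR 6.46e-05), and NIP3-1, a boron channel needed for tassel growth, rose 1.4-fold (FDR 4.56e-05).

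TIP2-3, a vacuolar channel, had 104, 124 and 115 CPM in well-watered, 87.8, 93.4 and 79.1 CPM in mildly stressed and 212, 255 and 230 CPM in severely stressed roots. Like PIP2-6 it was lowest under mild stress, with no overlap, but it ended above the well-watered level. It fell under mild stress (log2 fold change -0.40, FDR 0.0173, edgeR) and rose under severe stress (1.02, FDR 3.2e-06). The mild call was lost without well-watered replicate 2 (FDR 0.0877) or 3 (0.0633) or mild stress replicate 1 (0.0539) or 4 (0.0902). TIP3-2 (0.86), TIP1-2 (0.82) and SIP1-1 (0.16) also rose under severe stress, while SIP2-1 (-0.47) and TIP2-1 (-0.30) fell. TIP2-1 was the most abundant of these genes, with 2043 ± 90.6 CPM in well-watered, 1657 ± 149 CPM in mildly stressed and 1656 ± 154 CPM in severely stressed roots (SD, n = 3). Under mild stress it was lower by as much (-0.30) but was not called (edgeR, FDR 0.0748). TIP2-1 was called there with DESeq2 (FDR 0.0115) and with library sizes alone (0.0437). The same held with only the treatments compared (0.00512) and without severe stress replicate 1 (0.0473) or 2 (0.00524). The fall of TIP2-1 under severe stress was lost without well-watered replicate 2 (-0.27, FDR 0.0696) and with library sizes alone (-0.18, FDR 0.0653), and the rise of SIP1-1 was lost without well-watered replicate 1 (FDR 0.0875) or 3 (0.127), mild stress replicate 4 (0.0501) or severe stress replicate 5 (0.12), with unique reads (0.0912) and with no filter on low counts (0.0557).

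PIP1-2, the further gene found by its PIP name, lies on chromosome 5 from 193359341 to 193362190. It had 665, 794 and 721 CPM in well-watered, 590, 687 and 569 CPM in mildly stressed and 745, 729 and 754 CPM in severely stressed roots. Against well-watered roots it was not called, with log2 fold changes of -0.24 under mild (95% interval -0.43 to -0.05, FDR 0.131) and 0.03 under severe stress (FDR 0.779, edgeR). It was higher in severe than in mild stress (0.27, FDR 0.0229). PIP1-1 was not called in that comparison, at 0.11 (95% interval -0.07 to 0.30, FDR 0.287). The genes were not tested against each other.

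**Figure D5:**
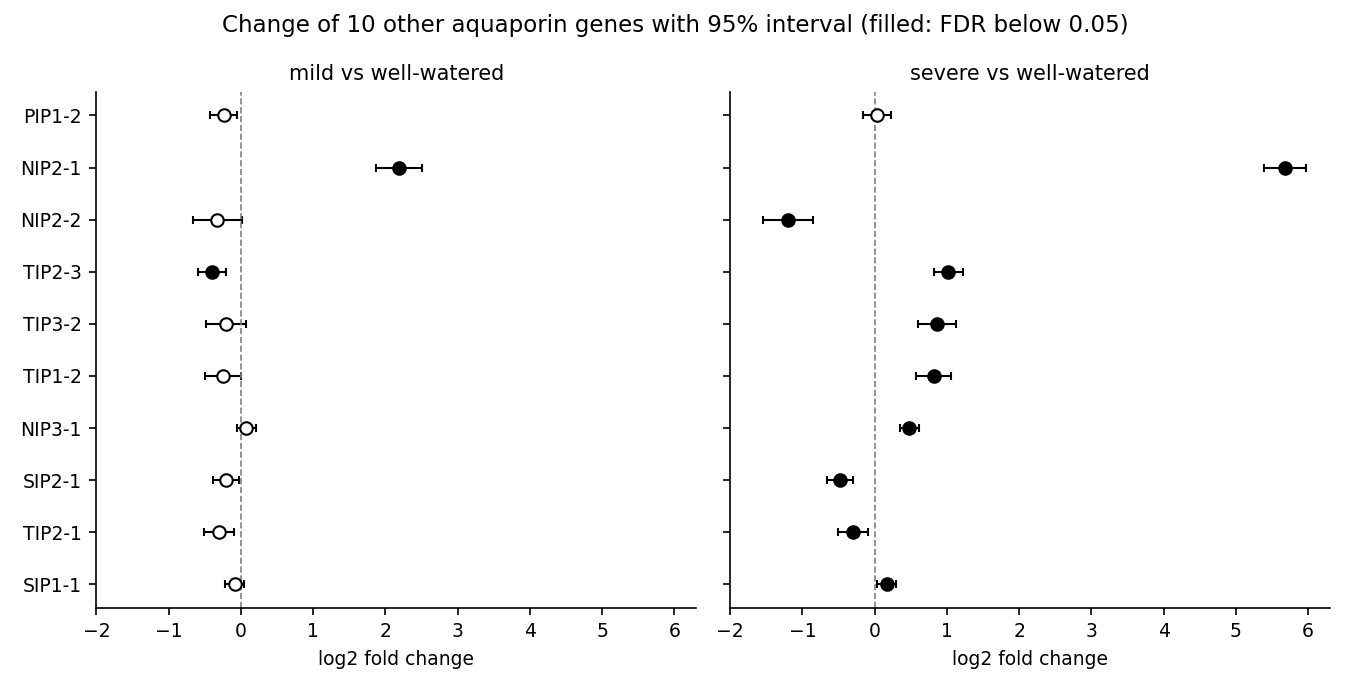
Log2 fold change (horizontal axes) of PIP1-2 and 9 other aquaporin genes under mild and severe stress against well-watered roots, with the 95% interval of edgeR's fit, not adjusted for the number of genes. Filled points have an FDR below 0.05; NIP2-1 stands far to the right in both panels (2.19 and 5.68), and TIP2-3 is negative under mild (-0.40) and positive under severe stress (1.02).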

How the data were processed

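Roots of B73 were sampled as pools of 5 per replicate, and the polyA RNA of 9 libraries was sequenced. The authors trimmed the reads, kept those of at least 36 nt and mapped them to B73 RefGen_v3 (Release 5b+) with CLC Workbench 6.8.1. The deposited counts give total and unique reads of 63074 transcripts without normalisation, and the deposited CPM of 46599 transcripts equal total reads per 1000000 reads of those transcripts to within 5e-07 CPM. The choice of the 46599 is not given in the sources used here.

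Total reads were summed by gene for the 26994 genes with at least 1 transcript in the CPM tables. They were fitted in edgeR 4.0.16 (R 4.3.3) with TMM factors, treatment as the only term and all 9 libraries in 1 model, and the 3 pairs of treatments were compared with the quasi-likelihood F-test and a Benjamini-Hochberg FDR below 0.05 over all genes tested. Single transcripts were tested in the same way over 46599 transcripts. The SE of a log2 fold change was obtained as its size over the root of its F statistic, and intervals are not adjusted. The script was tested on simulated data. Summaries used pandas 2.3.3, scipy 1.17.1 and Python 3.11.15. Names came from the files and from RefSeq (Zm-B73-REFERENCE-NAM-5.0), where 9 of the 10 PIP genes were matched, and coordinates are those of the files.

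All 10 PIP genes are named. Other aquaporins are named if changed under severe stress with a mean of at least 10 CPM, and the 3 genes most like PIP1-1 and PIP2-1 in pattern are named by their correlation. Genes named besides, such as PIP1-2, were chosen after their values were seen. The PIP genes and all gene lists were chosen with earlier results of these data known. Marker lists matched 2 of 4 symbols for dividing cells, 5 genes for 8 symbols of maturing root and 12 genes for 11 symbols of leaf. The alternatives were unique reads, at least 1 CPM in at least 3 libraries, no filter on low counts, DESeq2 1.42.0, library size without TMM factors, the replicate number as a block, fits of only the treatments compared, single transcripts in place of gene sums, and each library left out. Running these on PIP transcripts and on the named other aquaporins was added after the data had been seen. A library preparation or sequencing batch is not given in the sources used here. Ratios of reads and the smallest detectable abundance cover counting error only.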

Additional observations from a re-analysis of the deposited data

How the results depend on the processing

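With 3 replicates per treatment, p-values set a difference against the spread between pooled samples, estimated with all 9 libraries in 1 model. Of 477 values of PIP genes under the alternatives, 437 kept their direction and side of the threshold, 15 changed sign, 18 lost and 7 gained a call; none of the 15 belonged to a called change, and the cause of a lost call was not tested. Samples with the same replicate number had an r of their deviations of -0.003 to 0.114 (mean 0.07, n = 5 pairs, 3 over 0.1). The 22 other pairs had a mean of -0.02, with 4 over 0.1. Of 7 libraries that share their number, 4 correlated best with their own number. These values do not settle whether the numbers mark pairs, and the main fit did not take them as pairs. Mild stress replicate 4 and severe stress replicate 5 share their number with no other library, so with a block they do not contribute to the fold changes. In calls lost with the block, the block and the smaller number of libraries cannot be told apart. With the replicate number as a block, 1, 5 and 5 PIP genes were changed in mild against well-watered, severe against well-watered and severe against mild, losing PIP2-1 under mild stress, PIP2-2 under severe stress, and PIP2-1 and PIP2-3 between the stresses. The block gave 1414 and 6809 changed genes under mild stress and between the stresses, 1 and 8 other aquaporins and 0 and 1 PIP transcripts (PIP1-5 T01). The counts without the block were 2309 and 13310 genes, 2 and 14 other aquaporins, and 3 and 7 PIP transcripts. The block also lost TIP2-3 under mild stress (-0.27, FDR 0.138), and TIP2-1 (-0.34, FDR 0.0766) and SIP1-1 (0.097, FDR 0.368) under severe stress. Fits of only the treatments compared changed 3838 genes and 7 other aquaporins under mild stress. Among these were TIP2-1, SIP2-1 and NIP2-2, all lower, which the fit of all 9 libraries did not call.

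Leaving out 1 library gave 1 to 2, 5 to 6 and 5 to 8 changed PIP genes in these comparisons. Under mild stress it gave 1395 to 3633 changed genes, lowest without mild stress replicate 3 and highest without severe stress replicate 2, 1 to 5 other aquaporins and 0 to 3 PIP transcripts. For log2 fold changes that were not called, it gave ranges through zero under mild stress for PIP1-1 (-0.095 to 0.031), PIP1-3 (-0.013 to 0.122), PIP1-5 (-0.212 to 0.034), PIP2-4 (-0.083 to 0.094) and PIP2-5 (-0.078 to 0.093), under severe stress for PIP2-3 (-0.122 to 0.0059), and between the stresses for TIP2-1 (-0.074 to 0.074).

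Further sign changes of values that were not called were those of PIP1-1 (0.047) and PIP1-5 (0.029) under mild stress with the block, PIP1-3 under mild (-0.191) and PIP2-6 under severe stress (-0.052) with unique reads, PIP2-3 under severe stress with library sizes alone (0.071), and TIP2-1 between the stresses with at least 1 CPM in 3 libraries (0.026), library sizes alone (0.0997) or only the treatments compared (0.00046). Depth limits PIP1-6, whose reads outside severe stress are near the smallest detectable abundance, and likewise the transcript PIP1-3 T02 (1 to 10 reads) and the other aquaporins NIP2-3 (2 to 12 reads), TIP3-1 (0 to 5), TIP4-3 (0 to 4) and TIP4-1 (3 to 47).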
